A study of Mus musculus with 3 samples.

Results

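The cells described here were dendritic cells that carried low antibody-tag signals for CD11b, CD8a and CD301b and held mRNA of Ccrl2, Galc, Gpr65 and Flrt3. They came from a CITE-seq experiment, in which oligonucleotide-tagged antibodies on a cell are counted alongside its transcripts. A cell was a member when it had fewer than 150 CD11b, 120 CD8a and 50 CD301b tag molecules and at least 40 of CD172a. It also had fewer than 5 unique molecular identifiers (UMIs, each counting 1 captured molecule) of Tnfsf4, fewer than 5 of C1qa, C1qb and C1qc together, and at least 3 UMIs summed over the 4 marker genes. Of 5019 cells kept, 319 were members, which is 6.36% (95% Clopper-Pearson interval 5.70% to 7.07%). Of the 1360 cells that met the same tag, Tnfsf4 and C1q limits, the gate below, members made up 23.5% (21.2% to 25.8%). The other 1041 cells of the gate, with a marker sum below 3, were the main comparison, and all 4700 other kept cells the second.

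The mice were SiglechiCreTg/0, ROSA26LoxP-STOP-LoxP-RFP and Tnfsf4KI/+, so every cell had 1 altered copy of Tnfsf4, which encodes the costimulatory ligand OX40L, and a blue reporter (BFP) shows where it is active. The red reporter (RFP) stays on in any cell in which the Cre driven by Siglech has acted, so it records past as well as present expression. All mice had received MC903, a vitamin D analogue that inflames skin, on days 0, 2 and 4. The ear-draining lymph nodes were taken on day 5, no untreated group was analysed here, and the number of mice is not given in the sources used here. Sorted cells were B220-, MHC class II high, CD11c low to intermediate, XCR1- and CD326-, a gate for migratory dendritic cells that are neither Langerhans cells nor type 1 conventional dendritic cells (cDC1). They were sorted as 4 populations: BFP+RFP+, then BFP-RFP+, next BFP+RFP- and last BFP-RFP-. Each was stained with its own hashtag antibody before 5200, 5200, 10400 and 5200 cells were pooled in that order. Values for the 4 populations are given in that order throughout.

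Migratory dendritic cells carry antigen out of the skin and follow CCR7 ligands into the draining node, where they present it to T cells. CCRL2 is a non-signalling receptor that binds chemerin and presents it at the cell surface. GPR65 is a proton-sensing receptor that couples to cyclic AMP. Galactosylceramidase, from Galc, breaks down galactosyl lipids in the lysosome. FLRT3 is an adhesion and guidance protein that binds latrophilins and UNC5 receptors.

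The promoter windows of the 4 genes that define the cells are shown because the rule sums their transcripts. Each runs from 250 bases before to 50 after the gene's start in RefSeq, 5′ to 3′ along the gene, and capitals mark motif matches. All 4 genes matched the RefSeq table, whose build is GRCm38.p6, whereas the counts were made on GRCm39. Of 3 Ccrl2 windows in the table, the one with the most upstream start is shown.
Ccrl2: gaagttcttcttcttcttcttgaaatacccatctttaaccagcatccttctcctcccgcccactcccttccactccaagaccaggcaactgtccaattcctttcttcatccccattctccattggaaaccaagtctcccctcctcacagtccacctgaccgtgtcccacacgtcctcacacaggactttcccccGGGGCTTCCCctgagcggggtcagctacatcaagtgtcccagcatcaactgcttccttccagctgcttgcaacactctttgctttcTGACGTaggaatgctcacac
Galc: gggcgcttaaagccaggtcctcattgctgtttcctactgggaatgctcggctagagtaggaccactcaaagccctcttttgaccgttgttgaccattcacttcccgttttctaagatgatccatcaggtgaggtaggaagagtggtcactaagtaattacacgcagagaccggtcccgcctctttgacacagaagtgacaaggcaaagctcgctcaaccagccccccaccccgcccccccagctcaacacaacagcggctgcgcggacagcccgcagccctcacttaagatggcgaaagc
Gpr65: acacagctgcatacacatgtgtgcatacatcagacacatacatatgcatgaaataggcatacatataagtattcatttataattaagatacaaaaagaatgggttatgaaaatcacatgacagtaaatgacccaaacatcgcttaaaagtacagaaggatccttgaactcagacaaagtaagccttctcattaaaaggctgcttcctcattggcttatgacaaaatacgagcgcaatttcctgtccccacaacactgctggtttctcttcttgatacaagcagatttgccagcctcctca
Flrt3: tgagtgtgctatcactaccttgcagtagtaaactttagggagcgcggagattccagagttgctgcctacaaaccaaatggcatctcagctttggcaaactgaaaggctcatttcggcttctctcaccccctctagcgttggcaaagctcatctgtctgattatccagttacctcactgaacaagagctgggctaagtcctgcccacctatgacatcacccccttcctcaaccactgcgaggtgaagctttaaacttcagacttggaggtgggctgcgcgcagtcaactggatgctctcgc
The Ccrl2 window is chr9:111057469-111057768 on the minus strand, that of Galc chr12:98259410-98259709 on the minus strand, that of Gpr65 chr12:98268385-98268684 on the plus strand and that of Flrt3 chr2:140671427-140671726 on the minus strand. Galc and Gpr65 are next to each other on chromosome 12, in opposite directions, with their starts 9176 bases apart. On both strands the windows were searched for the kappaB motif, the AP-1 motif TGANTCA, the cyclic AMP response element core TGACGT and the NR4A motif AAAGGTCA. The Ccrl2 window held a kappaB match at bases 195 to 204, counted from its first base, and a TGACGT match at bases 281 to 286, which do not overlap. Of all 32851 RefSeq promoter windows of this length, 4.51% held a kappaB match and 7.51% a TGACGT match, while 7.81% held TGANTCA and 1.51% AAAGGTCA. The other 3 windows held no match to these 4 motifs.

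The mRNA, tag and hashtag libraries, 3 in all, came from 1 capture of 1 pool and share the same 6079 barcodes. Hashtags left 5380 barcodes in which 1 hashtag held at least 80% of hashtag UMIs, and 361 of these failed the other filters. The 4 populations had 841, 982, 2184 and 1012 kept cells and 14133804 to 35589710 mRNA UMIs. Each population was a single sample, so groups were not tested against each other and no p-value is printed. Differences are described by their size in each of the 4 populations, which are not replicates of one another. Intervals cover counting error only.

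Members were found in all 4 populations, with 44, 49, 176 and 50 cells. They made up 5.23% (3.83% to 6.96%), 4.99% (3.71% to 6.54%), 8.06% (6.95% to 9.28%) and 4.94% (3.69% to 6.46%) of the kept cells. The share was highest in BFP+RFP- cells, where the interval lay above those of both BFP- populations and met that of BFP+RFP+ cells. Within the gate the shares were 24.6%, 17.8%, 25.8% and 22.3%. Members had a median of 13677 UMIs and 3121 genes per cell, against 12853 UMIs and 3000 genes in the comparison cells and 14711 UMIs and 3206.5 genes in all other kept cells. Their median mitochondrial share was 1.72%, against 2.20% in the comparison cells, and their median hashtag count was 1280 UMIs, against 946 UMIs in the comparison cells. The part of these differences in the results was not tested.

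The tag signals of members lay within the limits by the rule, and within them they were close to those of the comparison cells. The median CD11b tag count was 26 in members and 21 in comparison cells, that of CD8a 40 in members and 37 in comparison cells, that of CD301b 30 in members and 28 in comparison cells, and that of CD172a 103 in members and 85 in comparison cells. In mRNA, Itgam, which encodes CD11b, had 1 UMI in the members and 1 in the comparison cells. Sirpa, which encodes CD172a, had 39.7, 51.6, 54.2 and 45.7 UMIs per 1000000 mRNA UMIs (CPM) in members, against 51.2, 88.9, 47.4 and 74.7 CPM in comparison cells. The ranges of Sirpa overlapped.

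Dendritic cell genes were present throughout. All 12 genes of the dendritic cell core list had UMIs in members, with a summed level of 19153 to 20547 CPM over the populations, against 21371 to 29841 CPM in the comparison cells. Flt3, the growth factor receptor of dendritic cells, stood at 416, 398, 406 and 479 CPM in members and at 363, 401, 390 and 436 CPM in comparison cells. Markers of other dendritic cells were of mixed level. Xcr1 and Clec9a of cDC1 had 3 and 1 UMIs, Siglech of plasmacytoid cells 1 UMI, and Cd207 of Langerhans cells none, which allows up to 0.636 CPM. Other genes of these lists were present. The summed level of the cDC1 list was 128 to 363 CPM in members, against 102 to 180 CPM in comparison cells, and that of the plasmacytoid list 691 to 951 CPM in members, against 715 to 1044 CPM in comparison cells. None of the 5 and 8 tested genes of these lists was called. The dendritic cell core genes did not go against the label of dendritic cells low in these tags.

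The 4 marker genes chose the members, so their levels are a description. Ccrl2 stood at 174, 98.1, 153 and 65.0 CPM in members, against 1.67, 4.77, 3.24 and 3.27 CPM in comparison cells. Gpr65 stood at 155, 89.1, 123 and 126 CPM in members, against 3.90, 4.09, 7.21 and 5.14 CPM in comparison cells. Galc stood at 50.01, 46.5, 55.7 and 80.2 CPM in members, against 5.57, 5.11, 5.15 and 10.7 CPM in comparison cells. For each of these genes no member population overlapped the comparison populations, as the rule makes likely. Flrt3 stood at 371, 199, 351 and 244 CPM in members, against 15.04, 5.45, 10.3 and 10.7 CPM in comparison cells. All other kept cells lay between, at means of 27.9 CPM for Ccrl2, 14.1 for Galc, 26.9 for Gpr65 and 66.4 for Flrt3, and Ccrl2, Gpr65 and Flrt3 were lowest among members in one of the BFP- populations.

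**Figure D1:**
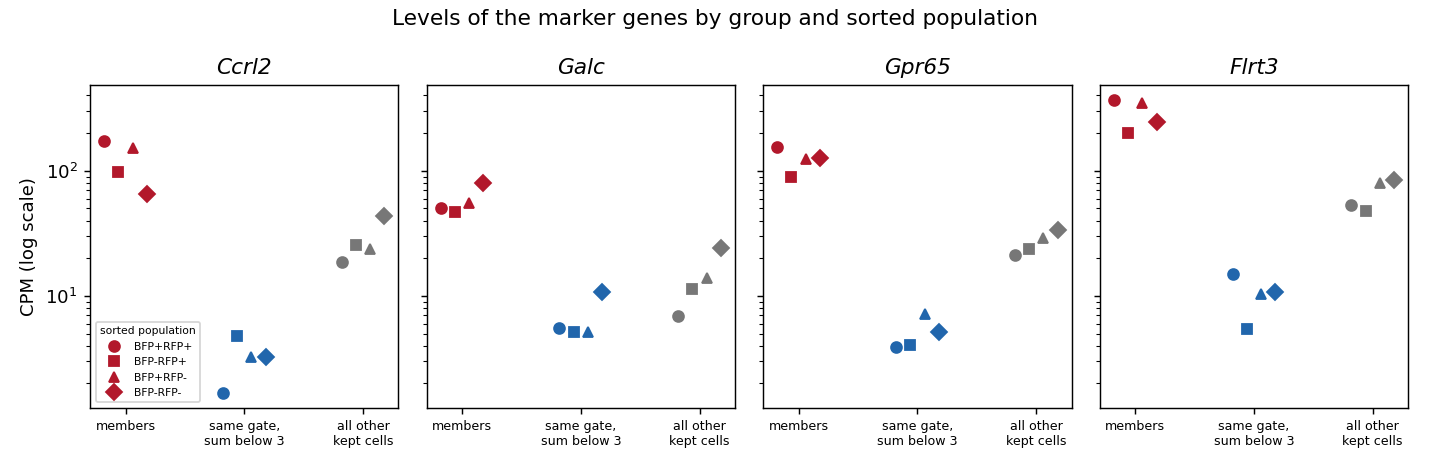
Level of each marker gene (CPM, log scale) in members, in cells of the same gate with a marker sum below 3 and in all other kept cells, with 1 point per sorted population. Flrt3 lay between 199 and 371 CPM in members and between 5.45 and 15.04 CPM in the comparison cells, and the members were chosen by these genes.

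The sum of the 4 genes ran on without a gap across the threshold. In the gate 783 cells had a sum of 0, 172 of 1 and 86 of 2, just outside, while 50 cells had 3, just inside, 40 had 4 and 30 had 5. The median in members was 7 UMIs and the highest 70, and 106 members had at least 10. Flrt3 was found in 276 members (86.5%), Gpr65 in 205 (64.3%), Ccrl2 in 142 (44.5%) and Galc in 120 (37.6%). Flrt3 gave 49.9% of the marker UMIs of members, Ccrl2 21.4%, Gpr65 19.5% and Galc 9.17%, as counts of 3′ ends. Only 1 of the 4 genes was found in 59 members, 2 genes in 133, 3 in 90 and all 4 in 37, and the neighbours Galc and Gpr65 were both found in 88.

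With each cell thinned to 5000 UMIs, Flrt3 was found in 64.9% of members (59.3% to 70.1%) and in 4.73% of comparison cells (3.48% to 6.26%). That left out 3 members and 68 comparison cells that were shallower. Among 87 barcodes with B cell UMIs, with a median depth of 5298 UMIs, Flrt3 was found in 2.30% before thinning, against 86.5% of members and 10.4% of comparison cells. After thinning it was found in 0 of 48 of these barcodes, which allows up to 7.40%. Among 240 barcodes with T cell UMIs, with a median depth of 10111 UMIs, Flrt3 was found in 17.9% before thinning and in 10.7% after it, both above the comparison cells. Gpr65 was found in 64.3% of members before thinning, against 31.3% of the barcodes with T cell UMIs, 12.6% of those with B cell UMIs and 6.63% of comparison cells. Members and comparison cells were chosen by the sum of the marker genes, so their shares of Flrt3 and Gpr65 are partly set by the rule. How these shares compare with those of the other barcodes is a description only.

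When a cell was chosen by 3 of the markers, the marker left out was also higher in every population. The members were defined by these markers with earlier results of the same data known. The ratios below therefore only describe how the markers go together in these cells. They cannot test whether the markers belong together, because the markers were not chosen independently of these data. Ccrl2 stood at 136, 80.6, 135 and 51.4 CPM in gate cells whose other 3 markers summed to at least 3, against 16.4, 10.7, 13.7 and 8.32 CPM in the rest of the gate. The log2 ratios of Ccrl2 were 3.04, 2.90, 3.30 and 2.61. Those of Gpr65, left out of the sum in turn, were 3.15, 2.66, 2.76 and 3.47, and those of Flrt3 2.90, 2.67, 2.95 and 1.79. Those of Galc were 2.36, 1.07, 2.77 and 1.92. Without Flrt3 in the sum 200 cells met the rule, and with every cell thinned to 5000 UMIs 181 did.

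The next question was what else these cells expressed that the rule did not use. For each gene the UMIs of members and of comparison cells were summed in each population, 0.5 UMI was added, and the log2 ratio of the CPM was averaged over the 4 populations. A gene is called higher or lower here where that mean was at least 1 in size, which is 2-fold, and all 4 populations had the same sign. Of 8346 genes with at least 100 UMIs, 207 (2.48%) were higher in members and 62 (0.743%) lower, 269 (3.22%) in all, and 203 of the higher ones were not marker genes. The median over all genes tested was -0.02. The genes came from the same libraries as the markers, so these counts describe the cells and support nothing about the rule. A summed level does not tell more cells with a transcript from more transcript in each cell.

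Regulators that cyclic AMP and other acute signals are known to induce were among the higher genes. Crem, a cyclic AMP response factor, stood at 259, 191, 206 and 249 CPM in members, against 47.3, 39.5, 46.1 and 41.6 CPM in comparison cells, a mean log2 ratio of 2.36. Nr4a2, an orphan nuclear receptor and immediate early gene, stood at 216, 151, 164 and 209 CPM in members, against 22.8, 50.1, 29.1 and 34.1 CPM in comparison cells, a ratio of 2.48. Atf3, a stress-induced transcription factor, stood at 172, 147, 203 and 238 CPM in members, against 30.6, 31.00, 32.8 and 42.96 CPM in comparison cells, a ratio of 2.46. For these 3 genes every member population lay above every comparison population. Crem was found in 50.6% of members (45.0% to 56.3%) and in 17.6% of comparison cells (15.2% to 20.1%) at 5000 UMIs per cell.

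Higher genes were also seen across the cyclic AMP response list, with a list median of 1.36. The list was chosen with earlier results of these data known, and it shares Fosl2 with the AP-1 list below. There 11 of 16 genes tested were higher, against 2.48% of all genes tested, and none lower. Nr4a3, a further member of that receptor family, stood at 457, 389, 488 and 617 CPM in members, against 145, 194, 109 and 106 CPM in comparison cells, and Nr4a1 at 44.8, 24.5, 31.1 and 22.1 CPM in members, against 2.78, 8.86, 6.92 and 5.14 CPM in comparison cells. Both phosphodiesterases that were higher, Pde4b (1.21) and Pde3b (1.59), break down cyclic AMP. Pde4b stood at 895, 859.7, 934 and 971 CPM in members, against 413, 395, 384 and 395 CPM in comparison cells. The others were the clock gene Per1 (1.76), the kinase gene Sik1 (1.41), Fosl2 (1.48), the phosphatase gene Dusp1 (1.31) and Rgs2 (1.08), a regulator of G protein signalling. Not past 2-fold were Pde4d at 0.78, Pde4a at -0.38, Crtc2 at -0.05, Creb5 at -0.32 and Ppargc1a at 0.33.

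Immediate early genes were split. Of 13 tested in the AP-1 list, 5 were higher, against 2.48% of all genes tested, and none lower, with a median of 0.71. Fos stood at 383, 444, 335 and 345 CPM in members, against 78.5, 92.99, 87.4 and 97.1 CPM in comparison cells, a ratio of 2.08. Junb, its partner in AP-1, stood at 1039.8, 896, 1015 and 999 CPM in members, against 344, 392, 376 and 345 CPM in comparison cells, a ratio of 1.44. The other 3 were Atf3, Fosl2 and Fosb (1.12). Jun stood at -0.20, Jund at 0.41 and Egr1, a zinc finger gene induced in the same responses, at -0.63, so not every immediate early gene was higher. Of 12 tested genes in the heat shock and dissociation stress list none was past 2-fold, with a median of -0.15. That list does not hold Fos, Junb, Atf3 or Fosb, and a response to cell dissociation was not tested. Hspa8, a chaperone, stood at 1298, 1372, 1212 and 1404 CPM in members, against 1468, 1433, 1552 and 1484 CPM in comparison cells. Hspa1a stood at 10.3, 49.1, 43.95 and 185 CPM in members, against 30.6, 74.6, 62.98 and 57.9 CPM in comparison cells, with overlapping ranges.

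By the naming rule, which took the 15 largest ratios of at least 100 UMIs not held by a few cells, the highest gene was Vps37b, a subunit of the ESCRT-I sorting complex. It stood at 102, 109.7, 87.9 and 67.8 CPM in members, against 9.47, 11.6, 14.4 and 11.2 CPM in comparison cells, a ratio of 2.95. Slc25a33, a mitochondrial pyrimidine carrier, stood at 53.5, 37.4, 43.2 and 55.3 CPM in members, against 5.01, 8.86, 5.15 and 6.07 CPM in comparison cells, a ratio of 2.91. Osm, the cytokine oncostatin M, stood at 67.2, 36.1, 48.9 and 48.4 CPM in members, against 6.68, 6.13, 11.3 and 5.14 CPM in comparison cells, a ratio of 2.78. In none of these did the groups overlap. Plek, which encodes the protein kinase C substrate pleckstrin, was the most abundant of the 15 in UMIs, at 579, 614, 611 and 578 CPM in members, against 125, 132, 113 and 91.99 CPM in comparison cells, a ratio of 2.38. Fam117b had the narrowest range over the populations, 2.32 to 2.34, and stood at 305, 323, 341 and 282 CPM in members, against 60.2, 64.04, 67.7 and 56.5 CPM in comparison cells. The remaining genes were Dgat1 (2.44), of triglyceride synthesis, Rnf157 (2.24), St7 (2.08), the transcription factor gene Klf4 (2.03), Aph1c (1.99), of the gamma-secretase complex, and Bpnt1 (1.97), a phosphatase of bisphosphate nucleotides. Klf4 varied most among these, with ratios of 1.07 to 3.20.

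**Figure D2:**
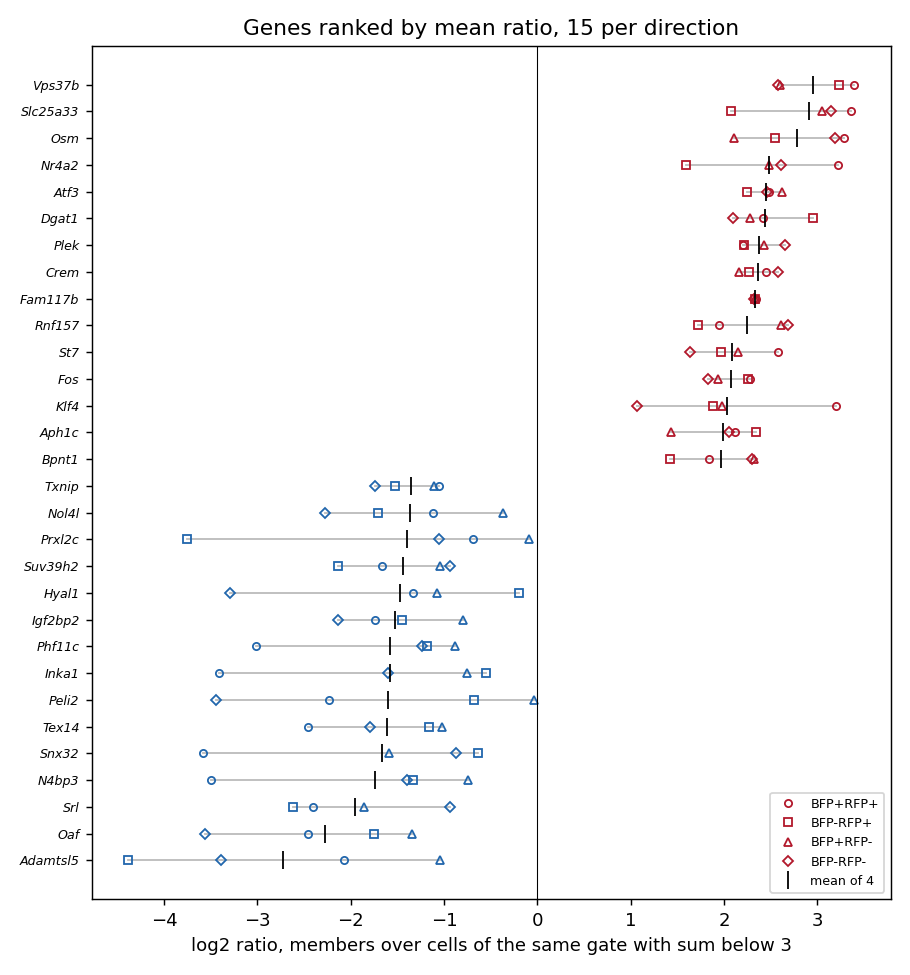
Log2 ratio of each ranked gene, members over cells of the same gate with a marker sum below 3, with 1 symbol per sorted population and a bar at the mean of 4. The higher genes run up to Vps37b at 2.95, with all symbols right of 0, and the lower genes down to Adamtsl5 at -2.72, on 10 UMIs in members.

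Receptors and molecules of migration came next. Ccr7, the receptor that guides dendritic cells into lymph nodes, stood at 2909, 2031, 2545 and 2497 CPM in members, against 1108, 1011, 1068 and 1117 CPM in comparison cells, a ratio of 1.20. All 4 member populations lay above all 4 comparison populations, although Ccr7 was found in 98.1% of members and in 94.2% of comparison cells at 5000 UMIs. Of 7 chemokine and guidance receptors tested 4 were higher, against 2.48% of all genes tested, with a median of 1.20. These were Ccr7, the CXCL12 receptor gene Cxcr4 (1.69), P2ry10 (1.60), a receptor for lysophospholipids, and Ccr6 (1.30), the CCL20 receptor gene. Cxcr4 stood at 91.4, 56.8, 105 and 105 CPM in members, against 22.8, 29.97, 22.95 and 33.6 CPM in comparison cells. Gpr183, the oxysterol receptor gene, stood at -0.49 with populations of either sign. In the migratory dendritic cell list Ccr7 alone of 20 genes was past 2-fold, with a list median of -0.16. Cd83, a maturation marker, stood at 0.92 and Fscn1, the actin bundler fascin, at -0.43.

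Of the relatives and partners of the markers that were tested, Gla and Ugcg were called. Among all genes tested, 2.48% were higher. Among 5 tested receptors of the proton-sensing and lipid list, a group to which Gpr65 belongs, none was called, with a median of 0.21. Gpr132 stood at 488, 475, 463 and 529 CPM in members, against 289, 312, 259 and 296 CPM in comparison cells, a ratio of 0.76, and Ptger4, a prostaglandin E2 receptor that raises cyclic AMP, at 0.85. The chemerin receptor gene Cmklr1 had 0 UMIs in members, which allows up to 0.636 CPM, and 0 in comparison cells, and no atypical chemokine or chemerin receptor reached 100 UMIs. Of 3 tested genes of the FLRT, latrophilin and UNC5 list none was called. Of 21 sphingolipid enzymes 2 were higher, Gla (1.88), the lysosomal alpha-galactosidase, and Ugcg (1.07), which makes glucosylceramide, with a list median of -0.11. Gla stood at 46.6, 51.6, 48.5 and 42.9 CPM in members, against 11.1, 12.6, 11.8 and 16.3 CPM in comparison cells, without overlap.

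Cytokine and chemokine genes went in either direction. Of 10 cytokine genes tested, Osm, Il1b, Il6 and Il12b were higher and Tnf lower, with a median of -0.07. Among all genes tested, 2.48% were higher and 0.743% lower. Il1b, which encodes interleukin-1 beta, stood at 171, 155, 167 and 152 CPM in members, against 31.2, 64.04, 51.9 and 88.7 CPM in comparison cells, a ratio of 1.55. Il12b, of the shared chain of interleukins 12 and 23, stood at 84.5, 18.1, 47.4 and 160.5 CPM in members, against 9.47, 11.6, 13.8 and 49.5 CPM in comparison cells, a ratio of 1.82, and its groups overlapped across populations. Tnf had 12 UMIs in members and 150 in comparison cells, at 0, 2.58, 1.52 and 8.30 CPM in members, against 6.68, 12.6, 8.24 and 21.01 CPM in comparison cells, a ratio of -2.13 with overlapping ranges. Il15 (-0.46) and Ebi3 (-0.62) were not past 2-fold.

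Of 10 chemokine genes tested, Cxcl10 and Cxcl2 were higher and Ccl17 lower, with a median of 0.43. The shares over all genes tested were 2.48% higher and 0.743% lower. Cxcl10, a ligand of CXCR3 on T cells, stood at 138, 71.00, 117 and 160.5 CPM in members, against 18.9, 15.7, 16.8 and 8.87 CPM in comparison cells, a ratio of 2.99. It was left out of the ranking because its 5 highest cells held more than 20% of its UMIs, but 27.2% of members had a UMI at 5000 UMIs per cell, against 5.34% of comparison cells. Ccl17, a ligand of CCR4 on T cells, stood at 77.6, 240.1, 255 and 112 CPM in members, against 199, 476, 343 and 327 CPM in comparison cells, a ratio of -1.07 with overlapping ranges. Ccl22, the other CCR4 ligand, stood at 1157, 901, 1509.6 and 1504 CPM in members, against 1806, 2329, 2248 and 1906 CPM in comparison cells, a ratio of -0.73 that missed 2-fold although no population overlapped. Ccl5 stood at 0.57.

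Transcription factor genes of dendritic cells were partly higher. Of 23 tested, Id2 (1.27), Nfil3 (1.93), Runx3 (1.65), Bcl6 (1.39), Klf2 (1.21), Klf4 and Cebpb (1.69) were higher and none lower, with a median of 0.11. That is 7 of 23, against 2.48% of all genes tested. Id2, an inhibitor of E proteins needed by conventional dendritic cells, stood at 2024, 1504, 2033 and 1830.5 CPM in members, against 749, 747, 774 and 777 CPM in comparison cells. Nfil3 stood at 238, 208, 192 and 198 CPM in members, against 65.7, 55.5, 47.8 and 50.9 CPM in comparison cells. Neither overlapped. Irf4, a factor of type 2 conventional dendritic cells (cDC2) and of their migration, stood at 56.9, 96.8, 68.96 and 77.5 CPM in members, against 105, 155, 106 and 85.9 CPM in comparison cells, a ratio of -0.58. Irf8 (0.11), Zbtb46 (0.38), Spi1 (0.26) and Tcf4 (-0.34) were not past 2-fold.

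Signalling lists were mixed, and their counts stand against the 2.48% of all genes tested that were higher. Of 17 genes of NF-kB and its feedback, Rel (1.15), Nfkbiz (1.16) and Tnip3 (1.03) were higher, with a median of -0.01. Rel, a subunit of NF-kB, stood at 1474, 1527, 1660.4 and 1811 CPM in members, against 694, 724, 701 and 801 CPM in comparison cells, whereas Relb (-0.17) and Nfkb1 (-0.01) lay near 0. Of 14 genes of the TSLP and STAT5 list, Pim1 (1.34), Socs1 (1.02) and Osm were higher, with a median of 0.03. Stat5a stood at -0.93 and Cish, a STAT5 target, at -0.97. In the BCL2 family 1 of 14 was higher, the proapoptotic Pmaip1 (1.42), with a median of -0.11.

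Genes for presenting antigen to T cells were not higher as groups. Of 12 class II presentation genes none was past 2-fold, with a median of -0.35 and 6 of the 12 negative in all 4 populations, against 15.6% of all genes tested. Cd74, the invariant chain, stood at 8525, 9469.9, 9139 and 8779 CPM in members, against 13892, 10624, 12621 and 10188 CPM in comparison cells, a ratio of -0.39. Class I processing had a median of -0.19, with 0 of 14 past 2-fold. Of 14 costimulation genes only Cd70 was called, as lower (-1.22), with a median of -0.49. Cd40, a receptor for T cell help, stood at 79.3, 134, 133 and 125 CPM in members, against 159.8, 269, 196 and 219.9 CPM in comparison cells, a ratio of -0.84. Cd80 went the other way, at 1017, 976, 929.9 and 977 CPM in members, against 617, 622, 522 and 505 CPM in comparison cells, a ratio of 0.79, while Cd86 stood at 0.33 and the Notch ligand gene Dll4 at -1.65 with populations of either sign.

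Of 22 genes of actin and migration none was past 2-fold, with a median of -0.18. Actb stood at -0.36, Vim at -0.56 and the integrin gene Itga4 at 0.73. In glycolysis 0 of 13 genes were called (median -0.17), in cholesterol and fatty acid 0 of 14 (median -0.19) and in the lysosome list 1 of 18, Tfeb at -1.12 (median -0.23). Fabp5, a fatty acid binding protein of high level in these cells, stood at 3535, 4832, 3938 and 3056 CPM in members, against 7435, 7558, 5364 and 5122 CPM in comparison cells, a ratio of -0.73. The ranges of Fabp5 did not overlap. None of the 6 proliferation genes tested was called (median 0.02).

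**Figure D3:**
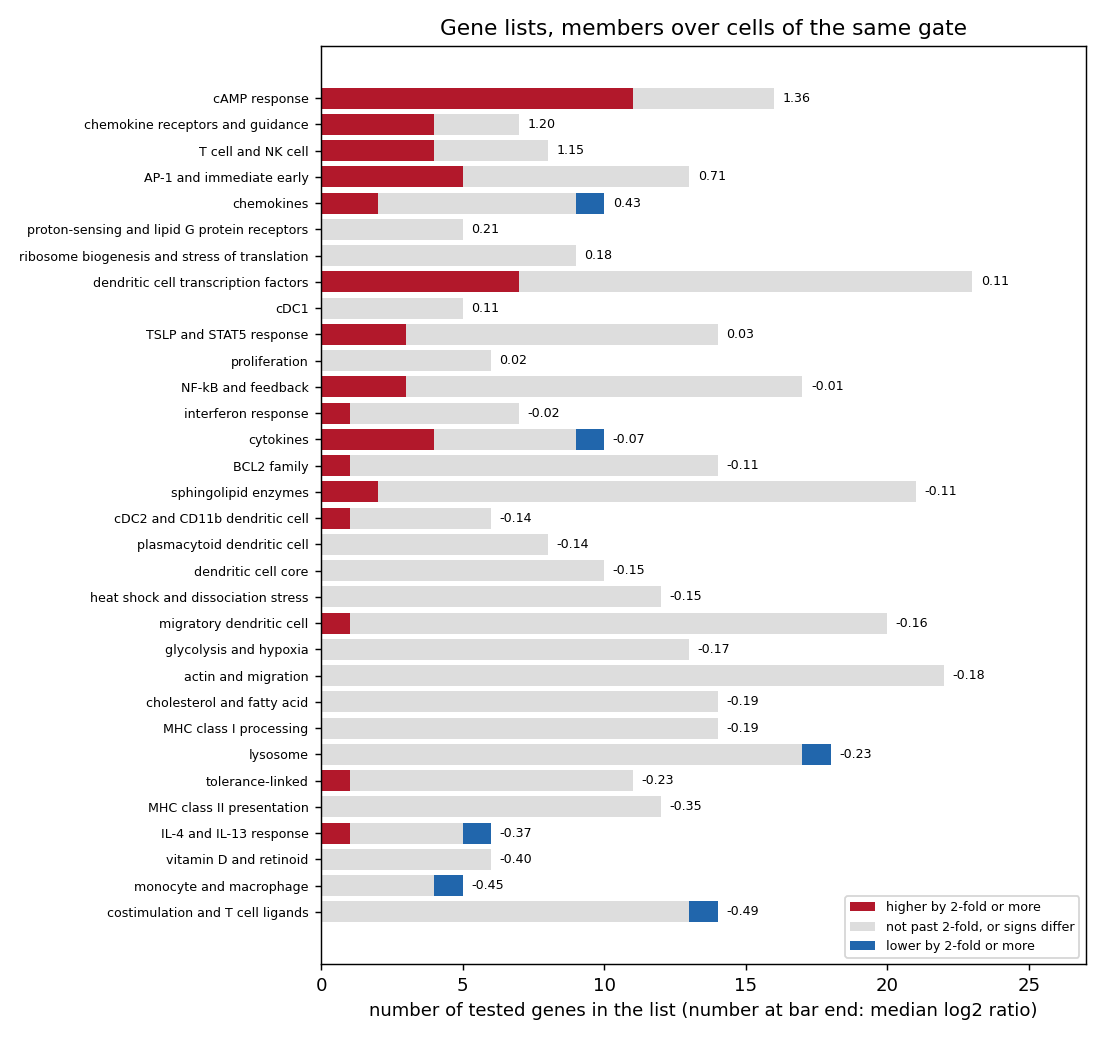
Number of tested genes in each list that were higher, not past 2-fold or lower in members than in comparison cells, with the median log2 ratio of the list at the end of each bar. The cyclic AMP response list had 11 of 16 genes higher, against 2.48% of all genes tested, and MHC class II presentation none of 12.

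The lower genes were mostly of few UMIs. The 15 ranked lowest had 10 to 244 UMIs in members. Adamtsl5, at 10 UMIs in members and 123 in comparison cells, had a ratio of -2.72, Oaf, at 10 UMIs in members and 128 in comparison cells, -2.28, and Srl, at 17 UMIs in members and 218 in comparison cells, -1.95. Adamtsl5 had no UMI in 2 of the 4 member populations. Next came N4bp3 (-1.74), Snx32 (-1.67), Tex14 (-1.61), Inka1 and Phf11c (-1.58 each), Igf2bp2 (-1.53), Hyal1 (-1.47), Suv39h2 (-1.44), Prxl2c (-1.40), Nol4l (-1.37) and Txnip (-1.36). Txnip, an inhibitor of thioredoxin, stood at 13.8, 10.3, 15.5 and 6.92 CPM in members, against 30.1, 31.3, 33.8 and 25.2 CPM in comparison cells, without overlap. With cells thinned to 5000 UMIs, 6 of the 15 ranked lowest kept a ratio of -1 or less, Adamtsl5, Inka1, Nol4l, Peli2, Srl and Tex14. The other 9 did not, Txnip at -0.64 and Snx32 at 0.04 among them. Peli2, a ubiquitin ligase gene of Toll-like receptor signalling, had a ratio of -1.60, but it varied over the populations, with -0.04 for BFP+RFP- and -3.44 for BFP-RFP-. Of 2602 genes with at least 1000 UMIs, 71 were higher and only Peli2, Ccl17, Cd82 (-1.11) and Aff3 (-1.02) were lower, a class chosen after its values were seen.

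Across the gate several of these genes also differed between marker sums on the same side of the threshold. Cells were grouped at sums of 0, 1, 2, 3 to 5, 6 to 10 and 11 or more, over all populations, with 783, 172, 86, 120, 105 and 94 cells. Crem stood at 34.0, 51.8, 118, 138, 200.1 and 332 CPM along these groups. Ccr7 stood at 945, 1263, 1769.5, 2013, 2597 and 2988 CPM. Fos stood at 75.3, 125, 137, 235, 378 and 494 CPM. Each of these 3 genes thus had its lowest level in cells without marker UMIs and its highest in the top group. Fabp5 stood at 6314, 5198, 5629, 4622, 4011 and 2877 CPM, and Ccl22 at 2229.7, 2134, 1527, 1465, 1359.5 and 1248 CPM. The chaperone gene Hspa8 stood at 1515, 1441, 1536, 1481, 1260.1 and 1047 CPM. BFP+RFP- cells gave 64 of the 94 cells of the top group, so the groups differed in their mix of populations, and median depth ran between 12697 and 13869.5 UMIs.

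**Figure D4:**
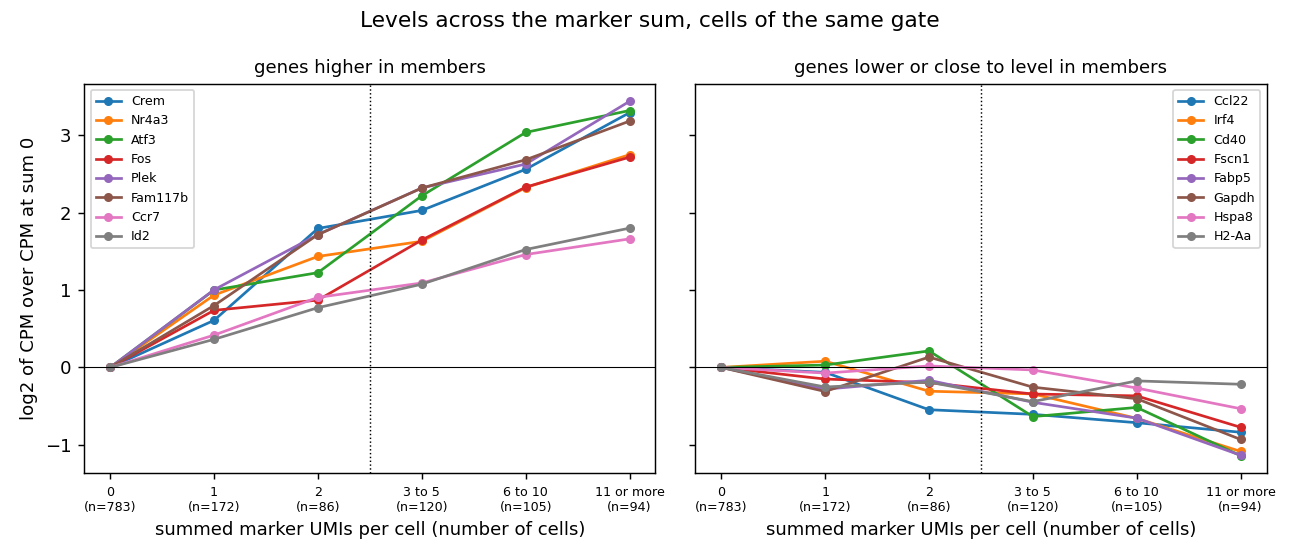
Log2 of the level in each group of marker sum over the level at a sum of 0, for cells of the gate over all populations, with a dotted line at the threshold. Crem ran up to 332 CPM, against 34.0 CPM at a sum of 0, and Fabp5 down to 2877 CPM, against 6314 CPM.

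The marker genes were not held by the gate alone. Of 1350 kept cells with a marker sum of at least 3, 319 (23.6%) were members. The other 1031 failed the limit for CD301b alone (187 cells), CD11b alone (173), CD8a alone (114), CD172a alone (73), Tnfsf4 alone (29) or C1q alone (1), or failed at least 2 limits (454). Among all kept cells outside the gate the same ratio was taken, of a sum of at least 3 over a sum below 3, in 141, 170, 465 and 255 cells against 521, 537, 1037 and 533 cells of the 4 populations. There 92 of the genes tested (1.1%) were higher and 29 (0.347%) lower, 121 (1.45%) in all.

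Most genes called in the gate had the same sign outside it. Of the 203 higher genes other than markers, 185 had a positive mean outside, against 50.3% of all genes tested, and 159 were positive in all 4 populations, against 20.8%. Of the 203, 70 were also called outside, and the median of the 203 was 1.38 in the gate and 0.86 outside. Crem stood at 1.39 outside, Nr4a2 at 1.60, Atf3 at 1.72, Osm at 1.79, Cxcl10 at 2.03 and Ccr7 at 0.88. Vps37b, the highest ranked gene in the gate, stood at 0.40. Of the 62 lower genes, 56 had a negative mean, against 49.7% of all genes tested, and 29 were negative in all 4 populations, against 18.7%. Their median was -1.27 in the gate and -0.44 outside, and 3 were also called outside. Tnf, lower in the gate, stood at 0.16 outside. Cells inside and outside the gate came from the same capture, and the difference between both ratios was not tested.

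**Figure D5:**
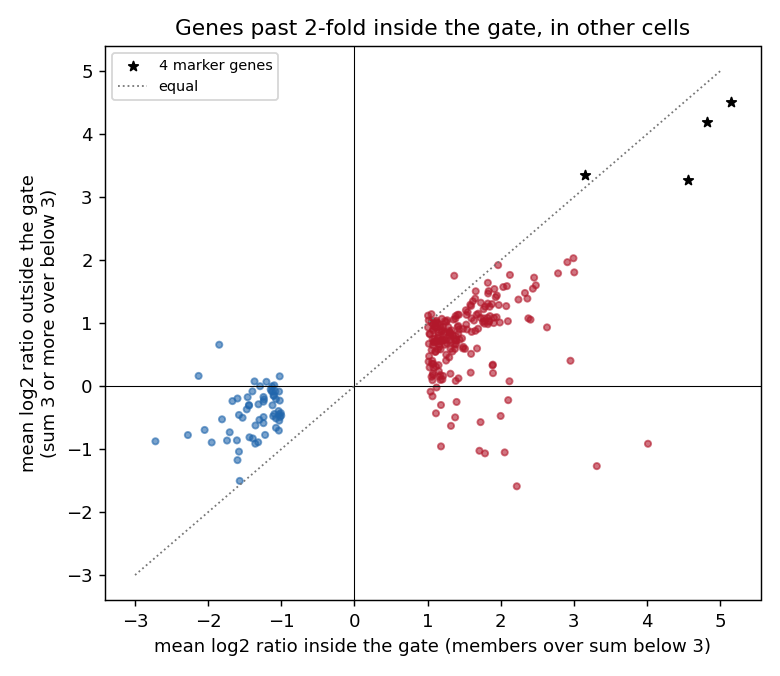
Mean log2 ratio of each gene called in the gate, members over comparison cells (x axis), against the ratio in cells outside the gate, marker sum at least 3 over below 3 (y axis), with the 4 marker genes as stars. Most of the higher genes lie right of and above 0 but under the line of equality, with medians of 1.38 and 0.86.

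Against all 4700 other kept cells, fewer genes were higher and more were lower. Of 10888 genes tested, 154 (1.41%) were higher in members and 322 (2.96%) lower, 476 (4.37%) in all. With the added 0.5 UMI scaled to the size of each group, these numbers were 104 and 604, and in the gate 200 and 95. The limits of the rule keep cells high in CD11b, CD301b or C1q out of the members, and 2 macrophage genes, Apoe and Lyz2, stood at -2.46 and -3.03. Id2 (1.08), Atf3 (1.56), Osm (1.45), Gla (1.49) and Crem (1.34) were higher in members in this comparison as in the gate. Ccr7 stood at 0.87 and Il1b at 0.16, both short of 2-fold, with Il1b at a mean of 158 CPM in all other kept cells, close to the 161 CPM of members.

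Genes of other cell types were also measured in members. In the monocyte and macrophage list 1 of 5 tested genes was called, Apoe, as lower (-1.46), and the summed level was 88.7 to 167 CPM in members, against 104 to 186 CPM in comparison cells and 223 to 678 CPM in all other kept cells. Fcgr1 and Fcgr3 had no UMI in members. In the T cell and NK cell list 4 of 8 were higher, against 2.48% of all genes tested. These were Cd3d (1.78), Trac, Trbc1 and Trbc2 (1.18, 1.11 and 1.72). The list median was 1.15 and the summed level 372 to 588 CPM in members, against 261 to 382 CPM in comparison cells. At least 2 UMIs of T, NK or B cell genes were found in 17 members (5.33%, 3.13% to 8.40%), in 27 comparison cells (2.59%, 1.72% to 3.75%) and in 8.38% of all other kept cells, although the sort required high MHC class II. Without these cells Cd3d stood at 0.31, Trac at 0.00300, Trbc1 at 0.83 and Trbc2 at 0.95, while the number of higher genes was 201. Nkg7, of the same list, moved the other way, with 1.92 and a positive ratio in all 4 populations without these cells, against 1.35 with them, on 14 UMIs in members and 13 in comparison cells. In the B cell list none of 4 was called, and Pax5 and Cd22 had no UMI in members.

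The red reporter transcript followed the sort in members as in other cells. The tdRFP transcript stood at 25.9 and 32.3 CPM in members of the RFP+ populations, against 23.9 and 22.1 CPM in comparison cells, and had 0 UMIs in members of the RFP- populations, where the intervals reach 1.40 and 5.10 CPM. BFP mRNA stood at 3.45, 2.58, 7.20 and 1.38 CPM in members, on 1 to 19 UMIs, against 19.5, 2.04, 7.80 and 0 CPM in comparison cells. Its intervals overlapped in each population except BFP+RFP+, where members had 0.418 to 12.5 CPM and comparison cells 13.6 to 27.1 CPM. Tnfsf4, limited by the rule to fewer than 5 UMIs per cell, stood at 32.8, 18.1, 38.3 and 11.1 CPM in members, against 36.2, 12.9, 19.3 and 4.67 CPM in comparison cells.

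Clustering the kept cells without the genes of the rule, the reporters, Siglech and mitochondrial genes placed the members unevenly. Of 10 clusters, cluster 5 held 167 members (52.4%), against 73 comparison cells (7.01%), and cluster 4 held 74 members (23.2%), against 56 comparison cells (5.38%). Cluster 3 held 17 members (5.33%), against 523 comparison cells (50.2%), and cluster 1 held 15 (4.70%), against 219 comparison cells (21.0%). Cluster 5 held 28, 22, 94 and 23 of the members of the 4 populations. Of the 1031 cells outside the gate with a marker sum of at least 3, cluster 5 held 38.9% and cluster 4 27.1%. The clusters share their cells and genes with the comparisons above and add no independent evidence.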

How the data were processed

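Raw UMI counts of genes, antibody tags and hashtags were deposited by the authors as 1 matrix from 1 capture. Per the file headers, Cell Ranger 7.0.0 wrote it; GRCm39 is the build in the submitters' processing notes. How barcodes were called as cells is not given in the sources used here. Tag and hashtag UMIs entered no mRNA total.

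Cells were kept with 1 hashtag at 80% or more of hashtag UMIs, 500 or more genes, 1000 or more mRNA UMIs and a mitochondrial share of 10% or less. This removes barcodes with mixed hashtags. How many doublets of different populations passed was not tested. Doublets within a population could not be removed and no doublet caller was run, so the counts were repeated without the deepest 5% of cells. Summed counts became CPM and log2 ratios with 0.5 UMI added, averaged over populations with at least 20 cells per group, for genes with at least 100 UMIs. Intervals are exact 95% Poisson or Clopper-Pearson intervals. The limit of 0.636 CPM for a gene with 0 UMIs in members is 3 counts over 4716436 UMIs. It is not the end of an exact interval. Ratios were tested on simulated data. No test between groups was possible, since each population is 1 sample.

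The naming rule took up to 15 genes per direction by mean ratio, with at least 100 UMIs in the higher group and at most 20% of them in 5 cells. It left out unnamed gene models, genes of ribosomes, mitochondria and antigen receptors, the genes of the rule and the reporters. Members of the gene lists could also be named, and those named were chosen after their values were seen. The members and lists were chosen with earlier results of these data known. Clusters came from scanpy 1.11.5 (2000 variable genes, 30 components, 15 neighbours, Leiden resolution 0.5). Scaling factors came from edgeR 4.0.16 and DESeq2 1.42.0 as alternatives only. Promoter windows came from RefSeq tables. A few list genes are not reported here.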

Additional observations from a re-analysis of the deposited data

Results flagged for a closer look

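For 5 genes of the lists the ratio of members over comparison cells had opposite signs in populations that differ by 1 reporter. The difference was not tested in any of them, and each population is 1 sample. Cd8a stood at -1.41 and -0.71 in BFP+RFP+ and BFP-RFP+ cells and at 0.81 and 1.57 in BFP+RFP- and BFP-RFP- cells, on 42 UMIs in members and 109 in comparison cells. Ctsl, a lysosomal protease gene, stood at 1.38 and 1.24 in the RFP+ populations and at -0.89 and -1.05 in the RFP- populations. Ly6d, a marker of lymphoid and plasmacytoid precursors, stood at 1.63 and 3.14 in the RFP+ populations. In the RFP- populations Ly6d stood at -4.67 and -0.50. It was also a top gene of cluster 2, with the B cell genes Cd79a, Ms4a1 and Pax5. At least 2 UMIs of B cell genes were found in 2 members and 9 comparison cells. Their part in the Ly6d ratios was not tested. Lag3, an inhibitory receptor gene, stood at -1.18 and -1.08 in the BFP+ populations, BFP+RFP+ and BFP+RFP-, and at 0.63 and 0.67 in the BFP- populations. The chemokine gene Ccl6 stood at -1.83 and -0.62 in the BFP+ populations and at 1.44 and 3.46 in the BFP- populations.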

How the results depend on the processing

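No paired analysis was possible because the 4 populations are single samples with no shared replicate number, and no test was made. The rule gave 269 to 405 members with a marker sum of at least 2, with a hashtag share of 90%, without cells with T, NK or B cell UMIs, without the deepest 5% of cells, or without Ccrl2, Galc or Gpr65 in the sum, but 229 at a sum of at least 5, 200 without Flrt3 and 181 when thinned to 5000 UMIs. In the gate the genes called numbered 269, and 224 to 355 under the alternatives, except that genes with at least 1 UMI gave 1798 (1657 higher, 141 lower). Because 0.5 UMI weighs more in the smaller member sums, a gene with 0 UMIs in both groups gets a ratio above 0. The higher and lower calls were 272 and 5 with 5 UMIs added, 186 and 160 when thinned, 196 and 159 without Flrt3 and 199 and 106 at a sum of at least 5. Against all other kept cells, 476 genes became 4502 (4178 higher) with at least 1 UMI, 2168 (2143 higher) with 5 UMIs added and 746 (178 higher) with populations pooled. TMM and DESeq2 factors moved the median ratio in the gate by 0.0205 and 0.0240. Of 71 genes followed under 21 alternatives, 1 of 1491 values reversed, Snx32 at 0.0395 when thinned, and 52 called genes kept a size of at least 1 in 1044 of 1092 values.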

Other observations

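Several gene lists that belong to no comparison above were read from the same ratios, members over comparison cells. MC903 acts through the vitamin D receptor, and of 6 tested genes of the vitamin D and retinoid list none was past 2-fold, with a median of -0.40. Vdr, the receptor gene itself, stood at 25.9, 24.5, 19.3 and 18.0 CPM in members, against 18.9, 16.7, 17.1 and 18.2 CPM in comparison cells, and Cyp24a1, its classical target, had no UMI in members, which allows up to 0.636 CPM. Of 11 tolerance-linked genes 1 was higher, Ahr, the aryl hydrocarbon receptor gene, at 1.10, with a median of -0.23. Aldh1a2, which makes retinoic acid, stood at -0.94 with populations of either sign. In the IL-4 and IL-13 list Klf4 was higher and Ccl17 lower of 6 tested, with a median of -0.37. None of 4 genes of the Toll-like receptor list and none of 8 plasmacytoid genes was past 2-fold, with medians of -0.13 and -0.14.

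Other abundant genes that were higher in members, named after their values were seen, included Btg2, an antiproliferative gene, at 307, 323, 368 and 356 CPM in members, against 72.4, 88.6, 94.2 and 108 CPM in comparison cells. Efnb2, the ephrin-B2 gene, stood at 402, 259, 347 and 268 CPM in members, against 90.8, 119, 109 and 121 CPM. Got1, an aminotransferase gene, had a ratio of 1.62 in the gate and 1.35 in the cells outside it, Nampt, of NAD synthesis, 1.77 and 1.07, and Satb1, a chromatin organiser, 1.89 and 0.21.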
